A study of Mus musculus with 12 samples.

Results

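Collagens, laminins, nidogens, perlecan and agrin were followed in the hippocampus of stressed mice with and without a fungal triterpenoid. The members were the protein-coding genes of the deposited table whose symbols name a collagen chain, a laminin alpha, beta or gamma chain, a nidogen (Nid1, Nid2), perlecan (Hspg2) or agrin (Agrn), leaving out Col8a1 and Col8a2. The symbols and gene types alone chose them, with no measured value, and gave 57 of the 78298 genes in the table. Poly(A) RNA was sequenced from 12 hippocampus libraries, 4 per group, all from male C57BL/6 mice bought at 6 to 8 weeks of age and marked as 1 batch. Treatment mice went through chronic unpredictable mild stress (CUMS, a varying daily stressor used as a rodent model of depression) for 28 days and were given poricoic acid A (Poria cocos acid A in the treatment protocol) from day 15, as a daily oral dose of 20 mg/kg over 14 days. Model mice went through the same stress and received saline. Control mice received saline without the stress. No group had the compound without stress, and the labels do not say whether a library came from 1 animal. The p-values therefore judge group differences against the spread between these libraries.

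Basement membranes are thin sheets of matrix under epithelia and around vessels, nerves and the brain surface. Laminins, each built of an alpha, a beta and a gamma chain, and collagen IV form separate networks in the sheet, which nidogens and perlecan join. In the brain these sheets lie around blood vessels, below the choroid plexus epithelium and under the pia, and are laid down by endothelium, pericytes, astrocytes and meningeal fibroblasts. Fibrillar collagens form the fibres of connective tissue, FACIT collagens (fibril-associated collagens with interrupted triple helices) bind to such fibres, and collagen VI forms beaded filaments at cell surfaces.

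Total estimated counts per library ran between 17083260 and 27479083, and 56 of the 57 members were among the 18600 genes that passed the filter on low counts. Col10a1, the collagen of hypertrophic cartilage, did not, with 0 to 0.253 CPM and 0 to 7 counts per library. CPM is the count relative to the total of its library, scaled by the trimmed mean of M-values. FPKM is the authors' deposited value, scaled by library total and by a length that can differ between libraries. A member is said to pass, rise or fall where edgeR's quasi-likelihood test gave an adjusted p under 0.05 (Benjamini-Hochberg, over all 18600 genes). Folds are log2 values with their standard error (SE) over n = 4 libraries per group. Where no setting is named, edgeR means the main fit of all 12 libraries. Genes of hippocampal neurons were present in every library, among them Prox1, the transcription factor of dentate granule cells, at 98.2 to 125 CPM in Treatment, 136 to 175 CPM in Model and 117 to 154 CPM in Control. Treatment replicates 2 and 3 carry library numbers apart from those of the other 10 libraries. In bulk tissue, fewer cells of a type and less RNA per cell cannot be told apart.

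The members spanned a wide range of levels per length. Agrn, the proteoglycan that organises receptors at nerve-muscle contacts and is also made by neurons, was highest at a median of 33.8 FPKM over the 12 libraries, and its lowest library (26.9 FPKM) lay above every library of any other member. Col25a1, a transmembrane collagen of neurons whose shed part is found in amyloid plaques, followed at a median of 12.8 FPKM, with Col4a2 at 10.6, Col9a3 at 9.02 and Col4a1 at 8.41 FPKM. The ranges of these neighbours over the libraries overlapped. In all, 10 members had a median of at least 5 FPKM, 22 lay between 1 and 5, and 25 lay under 1 FPKM, with Col10a1 lowest at 0.0179 FPKM. Within families the levels also spread, with Col25a1 and Col17a1 (0.153 FPKM) as highest and lowest transmembrane collagens, Col6a1 (6.59) and Col6a6 (0.0611) in collagen VI, Col11a2 (5.74) and Col2a1 (0.302) among fibrillar collagens, and Col9a3 and Col9a1 (0.296 FPKM) among FACIT collagens. Of the laminin chains, Lama2 (3.004) and Lama1 (0.429) were the highest and lowest alpha chains, Lamb2 (6.38) and Lamb3 (0.286) beta chains, and Lamc1 (5.47) and Lamc3 (0.994 FPKM) gamma chains. The gene length implied by count and FPKM differed between libraries by over 1.5 times in 25 of the 56 tested members, so groups were compared on counts. The counts were used without an offset for length, and what the length differences add to them was not tested. The plot of FPKM by group shows this order.

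**Figure D1:**
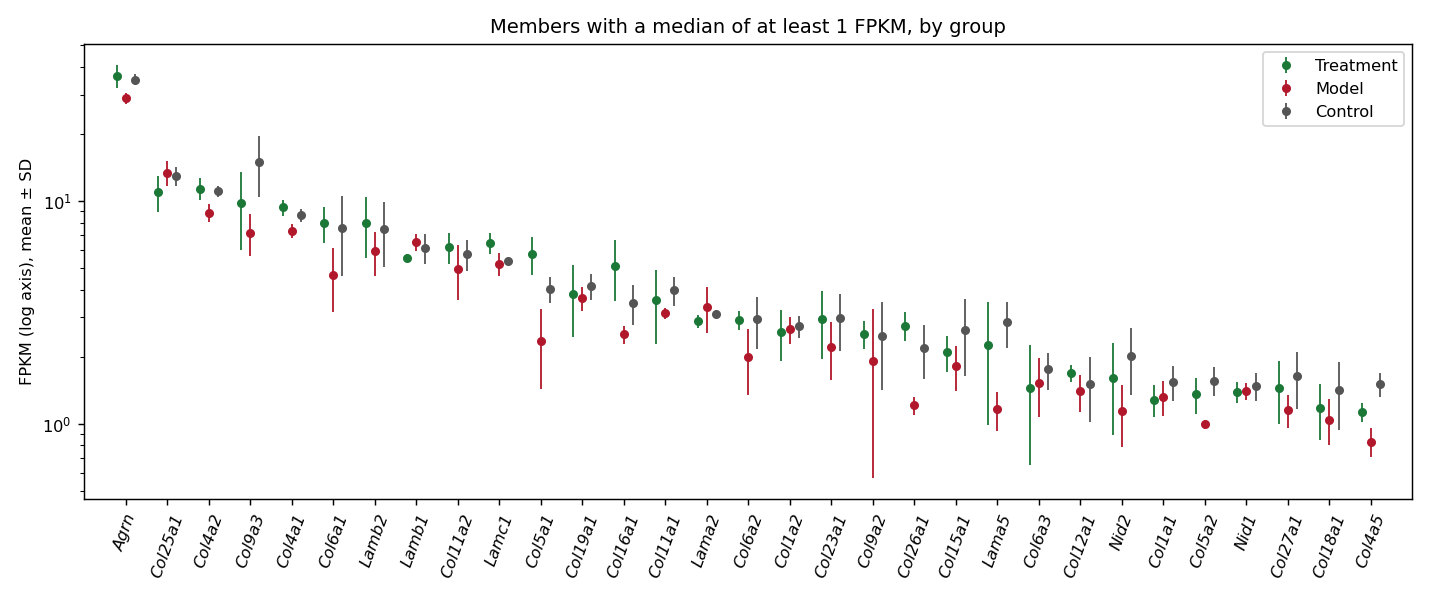
FPKM (log axis, mean ± SD, n = 4 libraries per group) of members with a median of at least 1 FPKM, ordered by that median, with Treatment, Model and Control side by side. Agrn stands above the others at 36.6 FPKM in Treatment, 28.9 FPKM in Model and 35.0 FPKM in Control.

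In Model against Control, 3 of the 56 tested members fell and 0 rose, while 0.452% of all genes tested fell and 0.339% rose. The 3 were Col4a5, Nid2 and Col9a3, 5.36% of the tested members. Fold changes were negative in 49 of the 56 members (87.5%), against 52.7% of all genes, with a median of -0.33 for the members and -0.01 for all genes. At an unadjusted p under 0.05, 20 members were lower (35.7%, against 7.85% of all genes) and 0 were higher (against 7.72% of all genes). All Model libraries lay below all Control libraries in 12 members (21.4%, against 5.46% of all genes), and in 0 members above them (against 5.95%). DESeq2, which gave an adjusted p for 40 of the 56, called 7 (17.5%, against 5.25% of the genes with an adjusted p), and limma-voom called 1 (1.79%, against 0.473% of all genes). Leaving out Control replicate 1 or 2 or Model replicate 2, 3 or 4 left 0 members called in edgeR. The number that passed thus changed when 1 library was left out, and why was not tested. Without Control replicate 3 or Model replicate 1 the count was 1.

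In Treatment against Model, 5 of the 56 tested members rose and 0 fell, while 1.18% of all genes rose and 0.704% fell. Those that rose were Col26a1, Col5a1, Col16a1, Col4a2 and Col24a1, 8.93% of the tested members. Fold changes were positive in 43 of the 56 members (76.8%, against 50.4% of all genes), and the median was 0.25 for the members and 0 for all genes. At an unadjusted p under 0.05, 19 members were higher (33.9%, against 9.78% of all genes) and 2 were lower (3.57%, against 8.69%). All Treatment libraries lay above all Model libraries in 5 members (8.93%, against 5.14% of all genes) and below them in 1, Lamb1 (1.79%, against 4.36%). DESeq2 called 6 of the 40 with an adjusted p (15%, against 8.33% of the genes with one) and limma-voom 4 (7.14%, against 1.71% of all genes). In edgeR, without Model replicate 2 or Model replicate 3, 0 members passed, and 1 passed without Treatment replicate 2. The count was 3 without Control replicate 4, Model replicate 4, Treatment replicate 1 or Treatment replicate 4. Model enters both comparisons, so their opposite signs are not independent of each other.

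In Treatment against Control, 0 members passed in edgeR, where 0.102% of all genes did. At an unadjusted p under 0.05, 14 members differed (25%, against 13.9% of all genes), of which 4 were higher (against 7.31% of all genes) and 10 lower (against 6.56%). Fold changes were negative in 37 of the 56 members (66.1%, against 52.1% of all genes), and 2, Col4a5 and Lamb1, lay in all Treatment libraries below all Control libraries (3.57%, against 3.24%). DESeq2 called 1 of 41 members with an adjusted p, Nid2 (2.44%, against 3.25% of the genes with one), and limma-voom called 0 (against 0.0484% of all genes). The median fold change was -0.06 for the members and -0.01 for all genes. The summed CPM of the 57 members was 803.9 to 980.5 in Treatment, 711.3 to 807.1 in Model and 852.8 to 937.1 in Control. The Model sums lay below all Control sums, and the highest Model sum lay above the lowest Treatment sum.

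**Figure D2:**
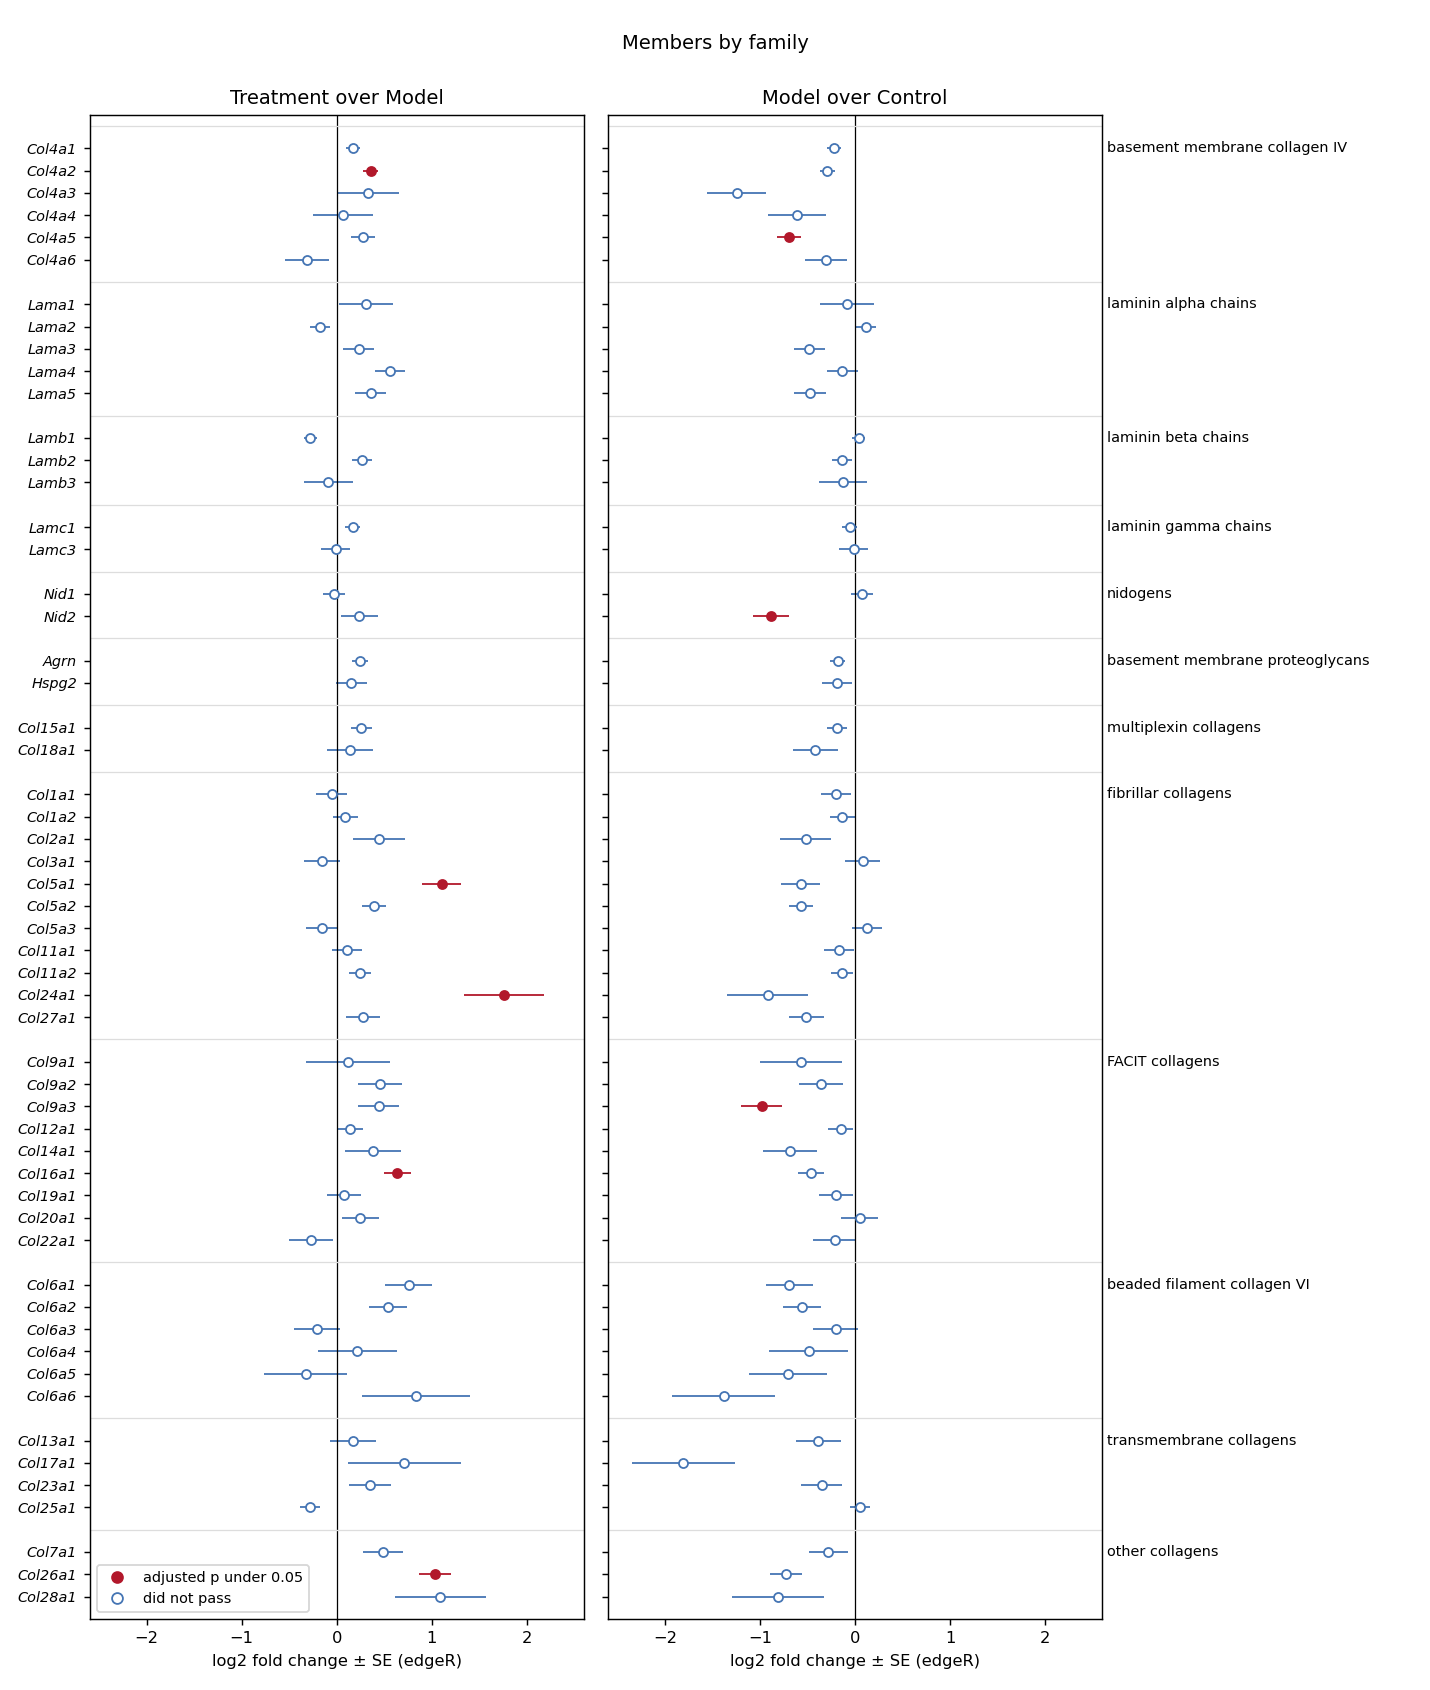
Log2 fold change (x axis, ± SE, edgeR, n = 4 libraries per group) of tested members grouped by family, Treatment over Model on the left and Model over Control on the right, with filled points for an adjusted p under 0.05. Most points lie right of 0 on the left, where 5 are filled, and left of 0 on the right, where 3 are filled.

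Collagen IV, the network collagen of basement membranes, has 6 chains, of which alpha 1 and alpha 2 are the widespread pair and alpha 3 to alpha 6 belong to specialised membranes such as that of the kidney filter. Each of the 3 gene pairs lies head to head. In the deposited GRCm39 coordinates, the listed transcript of Col4a1 (chr8:11248423-11362826) overlaps that of Col4a2 (chr8:11362805-11499287) by 22 bases. Gaps of 71 bases lie between Col4a3 and Col4a4 and of 1308 bases between Col4a5 and Col4a6. The Col4a1 and Col4a2 promoters are shown because both genes are read outward from one short stretch and their levels moved together across libraries. A link between these was not tested, and Col4a3 with Col4a4 was not among the pairs of chains correlated. Windows are RefSeq's for GRCm38.p6, from 250 bases before to 50 bases from the start site, and are written 5′ to 3′ on the strand of the gene. Col4a1 has chr8:11312777-11313076 on the minus strand and Col4a2 has chr8:11312555-11312854 on the plus strand, and the windows share 78 bases. Capitals mark GC boxes (GGGCGG) and CCAAT boxes (CCAAT), each searched on both strands, so that CCGCCC and ATTGG are the same boxes read from the other strand.
Col4a1: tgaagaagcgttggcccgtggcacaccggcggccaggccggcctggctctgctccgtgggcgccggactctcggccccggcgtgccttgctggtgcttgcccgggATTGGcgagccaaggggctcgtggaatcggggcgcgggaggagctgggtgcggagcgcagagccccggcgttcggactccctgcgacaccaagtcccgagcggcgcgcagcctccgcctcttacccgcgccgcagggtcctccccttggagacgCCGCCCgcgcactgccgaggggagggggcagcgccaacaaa
Col4a2: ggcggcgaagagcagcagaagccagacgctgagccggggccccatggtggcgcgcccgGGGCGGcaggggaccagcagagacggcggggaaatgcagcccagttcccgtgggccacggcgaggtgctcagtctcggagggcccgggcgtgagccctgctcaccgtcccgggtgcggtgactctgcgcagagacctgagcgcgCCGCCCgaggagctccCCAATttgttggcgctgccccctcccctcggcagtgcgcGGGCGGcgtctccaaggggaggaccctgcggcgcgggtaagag
The Col4a1 window holds 1 GC box and 1 CCAAT box at 74.0% G and C, and the Col4a2 window holds 3 GC boxes and 1 CCAAT box at 73.7%, against a median of 52.7% over all windows. A GC box was found in 35.7% and a CCAAT box in 37.4% of all 32851 promoter windows of this length. Of the 46 windows found for 41 of the 57 members, 28 held a GC box, 15 a CCAAT box and 5 a TATA box (TATAAA), which 13.6% of all windows held.

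All 6 collagen IV chains had negative fold changes in Model against Control, with a median of -0.46, and Col4a5 fell. Col4a5, on the X chromosome and the chain shared by both specialised networks, had 4.49, 4.63, 4.61 and 4.42 CPM in the Model libraries, against 6.75, 7.64, 8.38 and 6.62 CPM in the Control libraries. The Model libraries lay close to each other and all below the Control libraries. Its fold change was -0.69 ± 0.13 (SE, n = 4 per group, edgeR adjusted p = 0.0212). Treatment libraries had 6.05, 6.18, 4.9998 and 4.78 CPM, all above the Model libraries and all below the Control libraries, though the difference from Model did not pass (0.28 ± 0.13, edgeR adjusted p = 0.260), nor did that from Control (-0.42 ± 0.12, edgeR adjusted p = 0.153). The fall was no longer called on FPKM or without Control replicate 1, 2 or 3 or Model replicate 2, 3 or 4, and the adjusted p ran between 5.25e-04 and 0.114 over 22 alternatives.

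Col4a2, the alpha 2 chain, rose in Treatment. Its Treatment libraries had 76.6, 74.0, 69.7 and 60.6 CPM, its Model libraries 62.2, 54.3, 51.7 and 51.3 CPM and its Control libraries 66.9, 63.2, 67.5 and 71.6 CPM. All Model libraries lay below all Control libraries, and Treatment and Model overlapped only through Treatment replicate 4 and Model replicate 1. Treatment exceeded Model by 0.36 ± 0.08 (edgeR adjusted p = 0.0358), and Model differed from Control by -0.29 ± 0.08, which did not pass (edgeR adjusted p = 0.0889). The rise passed in 12 of 22 alternatives and not on FPKM, in a fit of only the 8 libraries compared, without Treatment replicates 2 and 3 together, or without Control replicate 4, Model replicate 2, 3 or 4, or Treatment replicate 1 or 2.

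Col4a1, the alpha 1 chain, was likewise lowest in Model but did not pass. Treatment libraries had 54.3, 54.4, 49.9 and 45.1 CPM, Model libraries 50.3, 44.2, 44.4 and 41.6 CPM and Control libraries 51.0, 53.1, 52.0 and 54.6 CPM. Model lay below Control throughout (-0.22 ± 0.07, edgeR adjusted p = 0.145), and Treatment and Model overlapped. Col4a1 and Col4a2 correlated over the 12 libraries with Pearson's r = 0.915 (permutation p = 5e-05, adjusted 5e-04 over 10 pairs of chains) and Spearman's rho = 0.874 (permutation p = 3.4e-04, adjusted 0.0017). With the 2 libraries farthest from the median left out r was 0.850, and after removing group means it was 0.917. On FPKM r was 0.63 and no longer passed (adjusted permutation p = 0.142). Whether reads in the overlap of the transcripts add to this was not tested. Col4a5 and Col4a6 had r = 0.338 (permutation p = 0.278, adjusted 0.520 over the 10 pairs) and rho = 0.287 (permutation p = 0.367), and r was -0.013 without the 2 libraries farthest from the median.

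**Figure D3:**
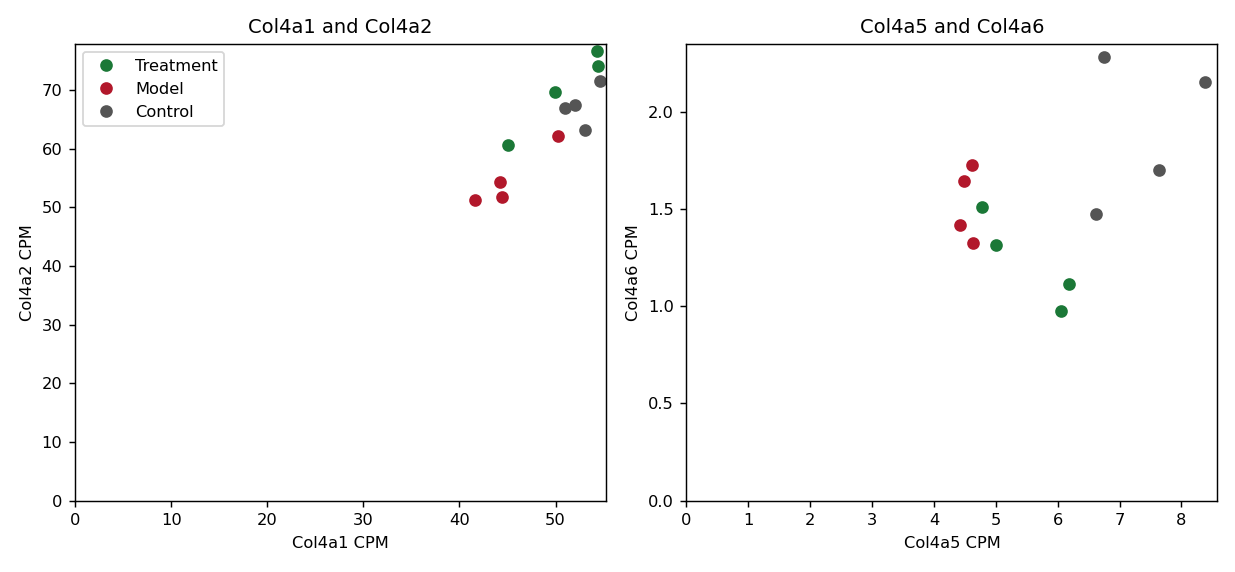
CPM of the chains of 2 head-to-head collagen IV gene pairs, 1 point per library and coloured by group, with both axes starting at 0. Col4a1 and Col4a2 follow a line (r = 0.915), with Model at 41.6 to 50.3 CPM of Col4a1, while Col4a5 and Col4a6 scatter (r = 0.338).

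Col4a3 and Col4a4, chains known from the kidney filter, were low. Col4a3 had 1.07, 0.992, 1.12 and 1.16 CPM in Model, against 2.43, 3.004, 3.49 and 1.47 CPM in Control, with no overlap between the groups. Its fold change of -1.25 ± 0.31 did not pass in edgeR (adjusted p = 0.0710), and 18 to 83 counts per library stood behind it. Col4a4 differed by -0.61 ± 0.31 and Col4a6 by -0.30 ± 0.22 in the same comparison, with the groups overlapping in both. In Treatment against Model, Col4a6 was the 1 collagen IV chain with a negative value, -0.31 ± 0.23, and it did not pass.

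Among laminin alpha chains, 0 of 5 passed in any comparison in edgeR. At an unadjusted p under 0.05, 2 were higher in Treatment against Model (against 9.78% of all genes), of which DESeq2 called 1. In Model against Control 2 were lower (against 7.85% of all genes), of which DESeq2 called 0. Lama5, a chain of vessel and epithelial membranes, had 12.1, 10.5, 12.7 and 10.6 CPM in Model, against 16.0, 17.0, 17.7 and 13.1 CPM in Control. Lama3, the alpha chain of epithelial laminin, had 5.65, 5.84, 4.01 and 5.88 CPM in Model, against 8.20, 8.40, 6.81 and 6.42 CPM in Control. In both chains every Model library lay below every Control library, at -0.48 ± 0.17 for Lama5 and -0.48 ± 0.16 for Lama3. Neither passed in edgeR (adjusted p = 0.176 for Lama5 and 0.164 for Lama3), and Lama5 was called in 2 of 22 alternatives and Lama3 in 0.

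Lama4, the alpha chain of vessel walls, was closest to the threshold of the alpha chains in Treatment against Model. It had 6.61, 6.49, 5.20 and 7.58 CPM in Treatment, against 5.25, 3.58, 3.59 and 5.11 CPM in Model, and the groups met at Treatment replicate 3 and Model replicate 1. The difference was 0.56 ± 0.16 (edgeR adjusted p = 0.0795), and it was called in 4 of 22 alternatives. Lama2, the alpha chain of muscle, nerve and astrocyte end-feet membranes, went the other way from most members without passing, at -0.18 ± 0.11 in Treatment against Model and 0.11 ± 0.11 in Model against Control. Lama1, the early embryonic alpha chain, differed by 0.31 ± 0.28 and by -0.08 ± 0.28 in these comparisons, and neither passed.

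Lamb1, the beta 1 chain, was the member with no overlap and a lower level in Treatment than in Model. Its libraries had 24.9, 28.7, 28.3 and 28.0 CPM in Treatment, 32.5, 33.3, 34.4 and 33.1 CPM in Model and 31.5, 31.9, 36.8 and 29.9 CPM in Control. All Treatment libraries lay below all libraries of both other groups. The difference from Model was -0.28 ± 0.07 with an edgeR adjusted p of 0.0573, and it passed in 5 of 22 alternatives, DESeq2 among them, with adjusted p between 0.0110 and 0.316 over the alternatives. The difference from Control was -0.24 ± 0.07 (edgeR adjusted p = 0.153). Lamb2, the beta 2 chain found at vessels and nerve-muscle contacts, had a positive value in the same comparison with Model, 0.27 ± 0.10, which did not pass (edgeR adjusted p = 0.182).

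Lamc1, the gamma 1 chain of most laminins, differed by 0.17 ± 0.08 in Treatment against Model and by -0.06 ± 0.08 in Model against Control, and neither passed. Lamc3 differed by -0.01 ± 0.16 in Treatment against Model and by -0.02 ± 0.15 in Model against Control.

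The nidogens, which bridge laminin and collagen IV, differed from each other. Nid2 fell in Model, at 4.00, 4.19, 5.78 and 3.82 CPM in Model, against 8.50, 9.77, 8.85 and 5.72 CPM in Control. Control replicate 4 lay low, so the groups overlapped between it and Model replicate 3. The fold change was -0.88 ± 0.19 (edgeR adjusted p = 0.0461), and it passed in 11 of 22 alternatives, with adjusted p between 1.47e-05 and 0.360. It was not called in limma-voom, on FPKM, or without Control replicate 1, 2 or 3, any of the Model replicates, or Treatment replicate 4. Treatment libraries had 4.87, 6.99, 4.75 and 4.39 CPM, which differed from Model by 0.24 ± 0.20 and from Control by -0.65 ± 0.19 (edgeR adjusted p = 0.148 for the difference from Control). Nid1 differed by 0.07 ± 0.11 in Model against Control and by -0.03 ± 0.12 in Treatment against Model. Over the 12 libraries the nidogens had r = -0.073 (permutation p = 0.812) and rho = -0.245 (permutation p = 0.444).

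The proteoglycans Agrn and Hspg2 did not pass in the main edgeR fit, DESeq2 or limma-voom. In 1 of 22 alternatives Agrn was called in Treatment against Model. Agrn had 223, 233, 184 and 175 CPM in Treatment, 187, 161, 175 and 164 CPM in Model and 197, 197, 194 and 194 CPM in Control. Model lay below Control throughout, and the Treatment libraries were spread, with replicates 1 and 2 above all others and replicates 3 and 4 within the Model range. Treatment differed from Model by 0.24 ± 0.08 (edgeR adjusted p = 0.122) and Model from Control by -0.18 ± 0.08 (edgeR adjusted p = 0.288). Hspg2, perlecan of vessel basement membranes, differed by 0.15 ± 0.16 and by -0.19 ± 0.16 in these comparisons. The multiplexins, proteoglycan collagens of the outer zone of basement membranes, also did not pass. Col15a1 differed by 0.26 ± 0.11 in Treatment against Model and by -0.19 ± 0.11 in Model against Control. Col18a1, the precursor of endostatin, differed by 0.14 ± 0.24 and by -0.42 ± 0.24.

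Of the 11 fibrillar collagens, 2 rose in Treatment against Model and 0 fell. Col5a1, a chain of collagen V that sets the width of collagen I fibrils, had 44.6, 36.1, 20.7 and 33.1 CPM in Treatment, 20.5, 15.3, 10.8 and 16.0 CPM in Model and 21.4, 27.4, 18.9 and 24.9 CPM in Control. Every Treatment library lay above every Model library, Treatment replicate 3 by a small margin. The difference from Model was 1.102 ± 0.20 (edgeR adjusted p = 0.0199), and it was not called without Model replicate 2 or 3 or Treatment replicate 2. Col24a1, a minor fibrillar collagen, had 6.87, 3.14, 2.58 and 4.05 CPM in Treatment, 1.16, 1.54, 0.233 and 1.97 CPM in Model and 2.77, 2.53, 1.40 and 2.53 CPM in Control. Every Treatment library lay above every Model library. The difference of 1.76 ± 0.42 (edgeR adjusted p = 0.0438) rests on 5 to 46 counts in the Model libraries, and it passed in 8 of the 19 alternatives that gave it an adjusted p, with adjusted p up to 0.117. DESeq2 gave it none. It was not called in limma-voom, in a fit of only the 8 libraries compared, or without Control replicate 1, 2 or 4, Model replicate 1, 2 or 3, or Treatment replicate 1, 2 or 4.

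Col5a2, the partner chain of Col5a1, had 6.40, 6.34, 6.01 and 6.05 CPM in Model, against 8.16, 10.4, 9.66 and 8.58 CPM in Control, with no overlap. The difference of -0.57 ± 0.13 narrowly missed the threshold in edgeR (adjusted p = 0.0504) and passed in DESeq2, with adjusted p between 0.00543 and 0.204 over the alternatives. Col11a1, a cartilage fibril collagen, also had no overlap between Model and Control, but at -0.17 ± 0.16 the gap was narrow. The main chains of fibrous tissue showed no such pattern. Col1a1 differed by -0.05 ± 0.16 in Treatment against Model and by -0.20 ± 0.16 in Model against Control. Col1a2 differed by 0.09 ± 0.13 and by -0.14 ± 0.13, and Col3a1 by -0.16 ± 0.19 and 0.08 ± 0.19, and none of these passed.

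Of the 9 FACIT collagens, Col9a3 fell in Model and Col16a1 rose in Treatment. Col9a3, a cartilage collagen chain, had 14.8, 15.5, 18.7 and 16.3 CPM in Model, against 34.4, 38.9, 35.7 and 20.1 CPM in Control. All Model libraries lay below all Control libraries, and Control replicate 4 lay apart from the other Control libraries. The fold change was -0.98 ± 0.22 (edgeR adjusted p = 0.0472). It was not called in limma-voom, on FPKM, or without Control replicate 1, 2 or 3 or any of the Model replicates. In Treatment the values were split, at 16.5, 29.8, 27.4 and 14.95 CPM, with replicates 2 and 3 between Control replicate 4 and the other Control libraries and replicates 1 and 4 in the Model range.

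Col16a1, found at cell contacts with matrix, had 14.05, 17.2, 12.3 and 13.4 CPM in Treatment, 9.16, 10.4, 8.57 and 8.58 CPM in Model and 14.1, 12.4, 9.14 and 14.7 CPM in Control. Every Treatment library lay above every Model library, and Control replicate 3 lay with the Model libraries. The difference from Model was 0.64 ± 0.14 (edgeR adjusted p = 0.0330), and it was not called on FPKM, without Treatment replicates 2 and 3 together, or when Treatment replicate 2 or 4 or any 1 of the Model replicates was left out. Col26a1, a secreted collagen with an EMI domain that belongs to none of these families, had 4.46, 5.12, 4.70 and 5.51 CPM in Treatment, 2.22, 2.31, 2.10 and 3.05 CPM in Model and 4.71, 4.42, 3.20 and 3.72 CPM in Control. Model lay below both other groups with no overlap. Treatment exceeded Model by 1.03 ± 0.17 (edgeR adjusted p = 0.0174), which passed in 20 of 22 alternatives and not without Model replicate 2 or 3, with adjusted p up to 0.0704. Model against Control gave -0.73 ± 0.17 and did not pass in edgeR (adjusted p = 0.0550).

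**Figure D4:**
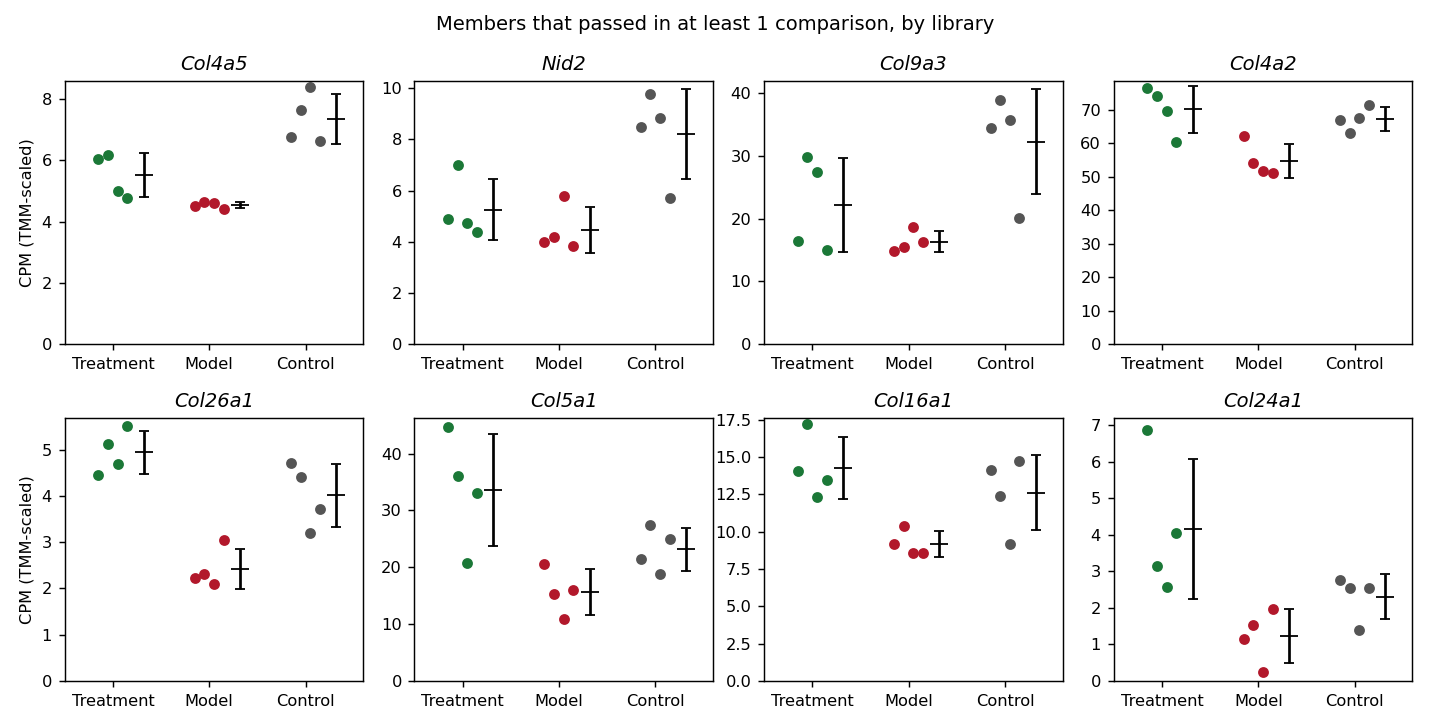
CPM by library of the 8 members that passed in at least 1 comparison, with 1 point per library and the mean ± SD of 4 libraries beside each group of points. Col26a1 sits at 4.46 to 5.51 CPM in Treatment, 2.10 to 3.05 CPM in Model and 3.20 to 4.71 CPM in Control, and Col4a5 at 4.42 to 4.63 CPM in Model lies below both other groups.

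Promoter windows are shown for the other called members that had one in the RefSeq table, as the members that moved in these comparisons. In GRCm38.p6 and on the plus strand they are chrX:141475169-141475468 for Col4a5, chr2:27886175-27886474 for Col5a1, chr4:130047590-130047889 for Col16a1 and chr3:145292222-145292521 for Col24a1. Capitals mark GC and CCAAT boxes as above.
Col4a5: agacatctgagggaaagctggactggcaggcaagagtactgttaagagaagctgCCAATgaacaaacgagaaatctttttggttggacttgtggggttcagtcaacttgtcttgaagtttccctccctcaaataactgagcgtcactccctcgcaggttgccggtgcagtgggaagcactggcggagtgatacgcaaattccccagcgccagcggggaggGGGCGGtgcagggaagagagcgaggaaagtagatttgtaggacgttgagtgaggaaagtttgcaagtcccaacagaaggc
Col5a1: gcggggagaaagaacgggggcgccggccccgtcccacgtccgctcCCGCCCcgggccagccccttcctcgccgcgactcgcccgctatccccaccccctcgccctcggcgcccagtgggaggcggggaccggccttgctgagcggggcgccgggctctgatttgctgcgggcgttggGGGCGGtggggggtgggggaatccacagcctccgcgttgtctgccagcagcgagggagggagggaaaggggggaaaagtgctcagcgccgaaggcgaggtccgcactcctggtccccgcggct
Col16a1: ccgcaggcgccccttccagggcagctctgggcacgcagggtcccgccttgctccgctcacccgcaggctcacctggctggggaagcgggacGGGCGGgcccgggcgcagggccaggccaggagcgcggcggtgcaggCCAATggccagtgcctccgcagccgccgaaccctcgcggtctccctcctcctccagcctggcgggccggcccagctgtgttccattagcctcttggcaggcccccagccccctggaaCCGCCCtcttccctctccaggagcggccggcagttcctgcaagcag
Col24a1: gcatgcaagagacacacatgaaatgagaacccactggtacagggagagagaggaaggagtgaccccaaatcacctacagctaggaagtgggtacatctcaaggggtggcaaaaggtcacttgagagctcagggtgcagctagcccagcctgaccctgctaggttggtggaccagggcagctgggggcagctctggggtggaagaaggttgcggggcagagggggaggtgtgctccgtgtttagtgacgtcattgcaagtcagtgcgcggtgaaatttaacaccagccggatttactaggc
The windows of Col5a1 (75.0% G and C) and Col16a1 (74.3%) hold 2 GC boxes each, and Col4a5 (52.7%) holds 1. A CCAAT box is in the windows of Col4a5 and Col16a1. None of the searched boxes is in the Col24a1 window (56.3%).

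Collagen VI had negative fold changes in Model against Control in all 6 chains, with a median of -0.63, and none passed in edgeR. At an unadjusted p under 0.05, 2 chains were higher in Treatment against Model (against 9.78% of all genes). In Model against Control 3 were lower (against 7.85% of all genes). DESeq2 and limma-voom called 0 chains in these comparisons. Col6a1 had 33.2, 24.7, 26.2 and 37.9 CPM in Treatment, 25.5, 18.0, 17.0 and 11.7 CPM in Model and 19.0, 44.6, 22.6 and 29.6 CPM in Control. The groups overlapped, and Control replicate 2 was the highest library of all. Treatment differed from Model by 0.76 ± 0.25 (edgeR adjusted p = 0.115) and Model from Control by -0.69 ± 0.25 (edgeR adjusted p = 0.183). Each of these differences was called in 1 of 22 alternatives. Col6a2, which assembles with Col6a1, differed by 0.54 ± 0.20 and by -0.56 ± 0.20. These chains correlated over the 12 libraries with r = 0.881 (permutation p = 2e-04, adjusted 0.001 over 10 pairs) and rho = 0.916 (permutation p = 9e-05, adjusted 9e-04). Without the 2 libraries farthest from the median r was 0.871, and after removing group means it was 0.786. The third chain, Col6a3, differed by -0.21 ± 0.24 and by -0.20 ± 0.24.

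Among transmembrane collagens, Col17a1, a protein of hemidesmosomes in skin, had the most negative fold change of any member in Model against Control, -1.81 ± 0.55. It had 3 to 8 counts per Model library, against 10 to 35 counts per Control library, and did not pass in edgeR (adjusted p = 0.127). Col25a1 had 48.0, 70.1, 61.3 and 52.5 CPM in Treatment, against 65.3, 74.4, 79.4 and 63.5 CPM in Model, and the groups overlapped. The difference of -0.28 ± 0.11 did not pass (edgeR adjusted p = 0.169).

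Other genes of matrix assembly were taken from lists of their known roles. Of 30 tested genes of collagen synthesis and crosslinking, 1 fell and 0 rose in Model against Control. In Treatment against Model 2 rose and 0 fell. Of all genes, 0.452% fell and 0.339% rose in Model against Control, and 1.18% rose and 0.704% fell in Treatment against Model. At an unadjusted p under 0.05, 8 were lower and 2 higher in Model against Control (against 7.85% and 7.72% of all genes). In Treatment against Model 5 were higher and 0 lower (against 9.78% and 8.69%). DESeq2 called 4 and limma-voom 1 in Model against Control, and each called 2 in Treatment against Model. The median fold change of this list was 0.12 in Treatment against Model and -0.12 in Model against Control, beside 0 and -0.01 for all genes in these comparisons. The medians of the other lists in the same comparisons were 0.15 and -0.17 for other basement membrane proteins, 0.14 and -0.11 for receptors, and 0.12 and -0.19 for proteases and inhibitors. Colgalt1, the enzyme that adds galactose to hydroxylysine of collagen, had 66.7, 71.6, 64.3 and 67.0 CPM in Treatment, 53.5, 54.0, 59.7 and 54.8 CPM in Model and 66.8, 71.8, 63.5 and 70.0 CPM in Control. Model lay below both other groups with no overlap, at -0.29 ± 0.06 against Control (edgeR adjusted p = 0.0347), and Treatment exceeded Model by 0.28 ± 0.06 (edgeR adjusted p = 0.0305). P3h3, a prolyl 3-hydroxylase of collagen, had 27.8, 24.98, 26.3 and 22.2 CPM in Treatment, against 19.8, 18.3, 18.5 and 20.3 CPM in Model, and rose by 0.40 ± 0.08 with no overlap (edgeR adjusted p = 0.0283).

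Of 22 tested genes of other basement membrane proteins, 1 rose in Treatment against Model. In Model against Control 0 passed in edgeR, DESeq2 or limma-voom, and 5 were lower at an unadjusted p under 0.05 (against 7.85% of all genes). The gene that rose was Hmcn2, a hemicentin that anchors basement membranes, at 1.13, 1.01, 0.909 and 1.51 CPM in Treatment, against 0.311, 0.110, 0.606 and 0.472 CPM in Model. Every Treatment library lay above every Model library, with a difference of 1.57 ± 0.37 (edgeR adjusted p = 0.0438). The difference rests on low counts, as the Model libraries lay between 0.110 and 0.606 CPM. How the results for Hmcn2, Colgalt1 and P3h3 depend on the setting is not given here. None of 18 tested receptors of collagen and laminin passed in edgeR, DESeq2 or limma-voom in any comparison. At an unadjusted p under 0.05, 3 were higher in Treatment against Model (against 9.78% of all genes). In Model against Control 2 were lower (against 7.85% of all genes). None of 19 tested matrix proteases and inhibitors passed in edgeR or limma-voom. DESeq2 called 1 of them in Treatment against Model and 4 in Model against Control. At an unadjusted p under 0.05, 3 were higher and 2 lower in Treatment against Model (against 9.78% and 8.69% of all genes). In Model against Control 2 were higher and 3 lower (against 7.72% and 7.85% of all genes). In Treatment against Control none of the 4 lists had a gene that passed in edgeR or limma-voom, and DESeq2 called 1 gene of the other basement membrane proteins. At an unadjusted p under 0.05 there were 5 synthesis genes, 4 other basement membrane proteins, 1 receptor and 2 proteases or inhibitors. Of all genes, 13.9% had such a p in this comparison.

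Marker genes of cell types were followed in the same libraries with 9 lists. At an unadjusted p under 0.05, 9.78% of all genes were higher and 8.69% lower in Treatment against Model. In Model against Control 7.72% were higher and 7.85% lower. All 20 choroid plexus epithelium markers had negative fold changes in Model against Control (median -1.26), and 2 fell in edgeR, Abca4 and Sostdc1, while DESeq2 called 14 and limma-voom 0. At an unadjusted p under 0.05, 19 of these 20 markers were lower in Model against Control. In Treatment against Model their median was 0.17, with 0 called in edgeR, DESeq2 or limma-voom and 0 at an unadjusted p under 0.05. In Treatment against Control all 20 were negative (median -1.06), and 19 were lower at an unadjusted p under 0.05 (against 6.56% of all genes). There edgeR and limma-voom called 0 and DESeq2 2. Their summed level was 530.8 to 1621 CPM in Treatment, 674.7 to 969.2 CPM in Model and 806.7 to 2626 CPM in Control. Control replicate 4 was the lowest Control library on this list, as it was for Col4a5, Nid2 and Col9a3. It was the highest Control library for Col4a1 and Col4a2. Treatment replicates 2 and 3 were the highest Treatment libraries on the list, as they were for Col9a3. For Nid2 and Col4a5, Treatment replicate 3 lay below Treatment replicate 1, at 4.75 against 4.87 CPM and 4.9998 against 6.05 CPM. A link between this list and these members was not tested.

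In Treatment against Model, 17 of 18 endothelial markers had positive fold changes (median 0.30), and 2 rose, Pecam1, an adhesion protein of endothelium, by 0.57 ± 0.11 (edgeR adjusted p = 0.0256) and Slco1a4, a transporter of brain endothelium, by 0.39 ± 0.08 (edgeR adjusted p = 0.0246). In Model against Control 12 of the 18 were positive (median 0.05) and 1 passed, Itm2a, which fell by 0.31 on the log2 scale (edgeR adjusted p = 0.0441). At an unadjusted p under 0.05, 12 of the 18 were higher in Treatment against Model, where DESeq2 called 5 and limma-voom 2. In Treatment against Control 16 were positive and 2 negative (median 0.35). There 11 were higher at an unadjusted p under 0.05 (against 7.31% of all genes), and edgeR and limma-voom called 0 and DESeq2 5. The summed level of the 18 was 326.7 to 377.3 CPM in Treatment, 283.8 to 307.5 CPM in Model and 275.6 to 309.4 CPM in Control. Of 16 tested pericyte and vascular smooth muscle markers, 15 were positive in Treatment against Model (median 0.33). Of these 8 had an unadjusted p under 0.05, and edgeR and limma-voom called 0 and DESeq2 2. In Model against Control 3 were positive and 13 negative (median -0.12), with 0 at an unadjusted p under 0.05. The sums of these markers were 202.7 to 236.7 CPM in Treatment, 179.6 to 182.4 CPM in Model and 178.8 to 196.3 CPM in Control. The 18 leptomeningeal fibroblast markers had a median of 0.04 in Treatment against Model and -0.04 in Model against Control, with 0 called in edgeR, DESeq2 or limma-voom, 1 higher and 2 lower in these comparisons at an unadjusted p under 0.05, and sums of 95.7 to 148 CPM in Treatment, 114 to 155 CPM in Model and 123 to 144 CPM in Control. Among red blood cell genes, all 5 tested were negative in Model against Control (median -0.57) and 1 fell, the globin gene Hbb-bt (-0.84 ± 0.17, edgeR adjusted p = 0.0316), with sums of 191.9 to 253.4 CPM in Treatment, 148.2 to 245.4 CPM in Model and 223.6 to 384.6 CPM in Control. Among 11 oligodendrocyte lineage markers, 10 were positive in Treatment against Model (median 0.12) and Olig1 rose, and 10 were negative in Model against Control (median -0.14) and Opalin fell (-0.42 ± 0.08, edgeR adjusted p = 0.0212), with sums of 6330 to 7721 CPM in Treatment, 6445 to 7696 CPM in Model and 6721 to 7907 CPM in Control. The 10 astrocyte markers had medians of -0.0011 in Treatment against Model, where Aldh1l1 rose (0.32 ± 0.07, edgeR adjusted p = 0.0398), and -0.08 in Model against Control, where 0 passed in edgeR, DESeq2 or limma-voom or had an unadjusted p under 0.05. Their sums were 4671 to 5776 CPM in Treatment, 5098 to 5543 CPM in Model and 5227 to 5688 CPM in Control. All 9 ependymal markers were negative in both comparisons (medians -0.30 in Treatment against Model and -0.25 in Model against Control) with 0 called in edgeR, and 1 had an unadjusted p under 0.05 and was called by DESeq2, in Treatment against Model. Their sums were 20.7 to 44.4 CPM in Treatment, 36.5 to 57.8 CPM in Model and 41.7 to 53.9 CPM in Control. Of 14 genes of hippocampal neurons and fields, 12 had negative fold changes in Treatment against Model (median -0.24) and 3 fell, the dentate granule cell genes Prox1, Calb1 and C1ql3, while 13 were positive in Model against Control (median 0.17) and 1 rose, Neurod2, with sums of 4398 to 4917 CPM in Treatment, 5010 to 5401 CPM in Model and 4451 to 4789 CPM in Control. No marker of these lists was at 0 in every library. The part of these cell types, and of the share of each hippocampal field in the tissue, in the members' differences was not tested.

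**Figure D5:**
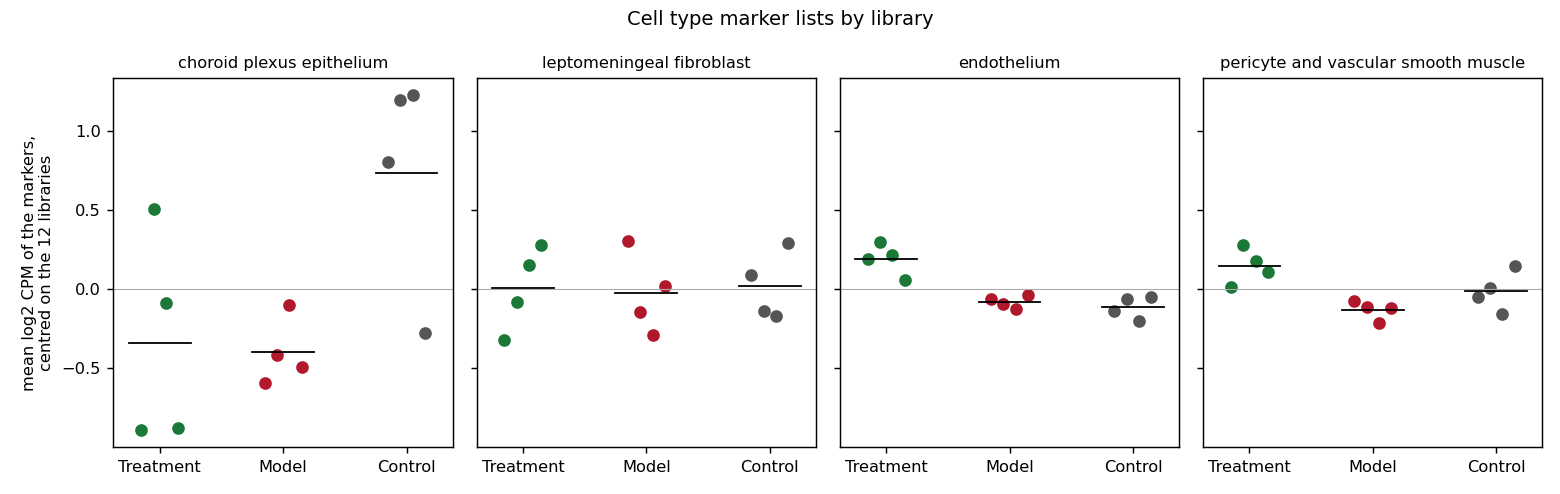
Mean log2 CPM of the markers of 4 cell types, centred on the 12 libraries (y axis), with 1 point per library and a line at each group mean. Choroid plexus markers lie at -0.89 to 0.51 in Treatment, -0.59 to -0.10 in Model and -0.28 to 1.22 in Control, and endothelial markers at 0.06 to 0.30 in Treatment, -0.13 to -0.03 in Model and -0.20 to -0.05 in Control.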

How the data were processed

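The data are RNA-seq of poly(A) RNA from 12 hippocampus libraries, 4 each of Treatment, Model and Control, grouped by the labels. The submitters' processing notes name STAR 2.7.10a and Salmon 1.10.1, Trim Galore 0.6.7 with cutadapt 3.4, and FastQC 0.12.1, with the build GRCm39 (mm39). Their roles, the annotation release and the strand setting are not given in the sources used here. The table holds the authors' estimated counts per gene as deposited, of which 28.8% of the nonzero values are not whole within 1e-06. It also holds the authors' FPKM, scaled by length and library total. Its coordinates are of 1 transcript per gene.

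Estimated counts were rounded and used without a length offset. A quasi-likelihood model with group means was fitted to the 12 libraries with edgeR 4.0.16 (R 4.3.3) after TMM scaling, on the 18600 of 78298 genes that filterByExpr kept, with a biological coefficient of variation of 10.7%. P-values were Benjamini-Hochberg adjusted over all tested genes of a comparison. SEs were derived from each fold change and its statistic. Correlations of pairs used log2 CPM with a prior count of 2 and a two-sided permutation test. Fits and permutation test were tested on simulated data. Alternatives were RLE scaling, DESeq2 1.42.0, limma 3.58.1 (voom, and the FPKM of genes reaching 0.5 in 4 libraries, with 0.1 or 1 added), other filters, fewer libraries and a replicate block. Named members are those that passed, the 5 of smallest p per comparison, a fixed set of chains, the highest and lowest of each family by FPKM, the member that failed the filter and up to 3 passing genes per pathway list. Col7a1 and the marker genes named with values lie outside this rule and were chosen after their values were seen. 1 member is counted but not reported by name or drawn here. The members and lists were chosen with earlier results of these data known. Promoter windows are RefSeq's, matched by symbol.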

Additional observations from a re-analysis of the deposited data

Results flagged for a closer look

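In 4 of 105 sets of 4 libraries (35 named members in 3 groups), 1 library lay far from the other 3 of its group by Dixon's test at the 95% level, which flags about 1 in 20 sets by chance, here 5.25. Col24a1 had 1.40 CPM in Control replicate 3, against 2.53 to 2.77 CPM in the other Control libraries. Lama3 had 4.01 CPM in Model replicate 3, against 5.65 to 5.88 CPM in the other Model libraries. Lamc1 had 36.9 CPM in Model replicate 4, against 33.6 to 33.8 CPM in the other Model libraries, and Nid1 had 9.35 CPM in that library, against 7.87 to 7.88 CPM.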

How the results depend on the processing

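The number of members called depended on the setting, and the cause was not tested. Shares of all genes are given above for the main fit, DESeq2 and limma-voom, and not for the other settings. Counts from those other settings therefore do not set the members apart from other genes. In Model against Control it was 3, and 7 with DESeq2, 1 with limma-voom, 15 without a filter on low counts, 5 with at least 1 CPM in 8 libraries, 7 in a fit of only the 8 libraries compared, 5 without Treatment replicates 2 and 3, and 0 on FPKM with either pseudocount. Leaving out 1 library gave 0 to 4. In Treatment against Model it was 5, and 13 without a filter (11 higher, 2 lower), 3 in a fit of only the 8 libraries, 4 without Treatment replicates 2 and 3 (3 higher, 1 lower, with Col16a1 and Col4a2 no longer called) and 2 on FPKM with either pseudocount, with 0 to 6 when 1 library was left out. In Treatment against Control it was 0, and 1 with DESeq2, 5 without a filter (3 higher, 2 lower) and 2 without Treatment replicates 2 and 3, with 0 in every fit that left out 1 library. With replicate number as a block, 5 members were called in Model against Control, 8 in Treatment against Model (7 higher, 1 lower) and 0 in Treatment against Control. Deviations of same-numbered libraries from their group means correlated at -0.04 to 0.111, and 4 of 12 libraries correlated best with their own number. Without a reference from libraries of unlike number, these values do not decide whether the numbers pair the libraries. The 8 called fold changes kept their sign in every alternative. On FPKM the correlation of Col4a1 with Col4a2 was 0.63 and no longer passed. That of Nid1 with Nid2 was 0.36 on FPKM and -0.36 to 0.15 when 1 library was left out, and that of Col1a1 with Col3a1 was -0.17 on FPKM. That of Col9a1 with Col9a3 ran between 0.50 and 0.75 when 1 library was left out and passed without Model replicate 1. Low counts limit Col24a1, Col17a1 and Col4a3, where Model libraries held 3 to 46 counts.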

Other observations

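FPKM and counts did not always rank the libraries alike. The gene length implied by the ratio of count to FPKM differed over 2-fold between libraries in 15 of the 56 tested members, with a median ratio of longest to shortest of 1.44 over the members. For Col7a1, the collagen of anchoring fibrils, it ran between 1246 and 8956 bases, and for Col16a1 between 1946 and 4113 bases, while for Col4a2 it stayed between 5906 and 6208 bases. On FPKM with a pseudocount of 0.1, Col16a1 differed by 0.95 in Treatment against Model, against 0.64 on counts.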
